A study of Homo sapiens with 30 samples.

Results

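To determine which regions of open chromatin were present or absent when active AKT was added to ERG, the ATAC-Seq peak lists of RWPE1-ERG and RWPE1-ERG+mAKT cells were compared. RWPE1 is an immortalized, non-tumorigenic prostate epithelial cell line. RWPE1-ERG cells carried a pQCXIH retrovirus for ERG and the empty pBabe-Puro vector, and RWPE1-ERG+mAKT cells carried the same ERG retrovirus and pBabe-Puro with myristoylated AKT (mAKT), so both groups expressed ERG and only 1 carried mAKT. Both lines were drug-selected populations of transduced cells, each with 1 ATAC-Seq library and no replicate, so no test between libraries was possible and each value below describes these 2 libraries. The RWPE1-ERG list held 63354 peaks and the RWPE1-ERG+mAKT list held 42081. A peak was called gained if it was among the first 33000 RWPE1-ERG+mAKT peaks by p and overlapped no RWPE1-ERG peak of any rank by 1 bp or more, and lost if the reverse held. This gave 2251 gained and 6798 lost peaks, 9049 regions of the 105435 in both lists and of the 163434 in the 3 ATAC-Seq lists used from the series.

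ATAC-Seq marks DNA that a transposase can reach, which in an epithelial cell is mostly gene starts and distal enhancers. ERG is an ETS transcription factor that prostate tumors often misexpress through gene rearrangement, and in enhancers it often binds beside AP-1, the FOS and JUN family dimers. AKT is the kinase downstream of PI3K, and among its substrates are the FOXO factors of the forkhead family, which active AKT keeps out of the nucleus. Myristoylation holds AKT at the membrane, where it is active without upstream signal.

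The labels were checked first. Pooled FPKM of AKT1 was 64.2 in RWPE1-ERG and 281 in RWPE1-ERG+mAKT cells, a 4.33-fold difference on FPKM + 1. ERG was at an FPKM of 358 and 328. Both lists held a peak lying within an exon of ERG, at chr21:39755339-39755835 (hg19) in RWPE1-ERG and chr21:39755381-39755816 in RWPE1-ERG+mAKT, with pileups of 79.3 and 23.6, and the list of RWPE1+mAKT, a line with mAKT but no ERG virus, had 0 peaks inside an exon of ERG. AKT1 gave no such check. The RWPE1-ERG+mAKT list had 0 peaks in AKT1, and 1 peak inside an AKT1 exon was present in RWPE1-ERG, the line without mAKT (chr14:105260444-105260805), as well as in RWPE1+mAKT. Both lines had high FPKM of the basal keratins KRT5 (1170 and 3519) and KRT14 (700 and 1185). The luminal keratins KRT8 (1769 and 921), KRT18 (1843 and 958) and KRT19 (956 and 654) were also high in both, while the secretory luminal markers KLK2 and KLK3 were listed at 0. The summed FPKM of 5 endothelial markers was 0.0628 and 0.326, that of 6 fibroblast markers was 2.19 and 1.82, mostly COL1A1, and that of 5 leukocyte markers was 28.9 and 24.3, mostly CD68, with the defining markers PECAM1, COL3A1, DCN and PTPRC at or near 0.

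The following gained regions are shown because they lay nearest to genes described below, and because 983 of the 2246 gained regions that could be read (43.8%, 95% Wilson interval 41.7 to 45.8) held the AP-1 site TGANTCA within 100 bp of the centre. Each runs 100 bp to either side of the peak centre on the hg19 plus strand. Capitals mark matches on either strand to TGANTCA (AP-1, with any base at N), TGTTTAC (forkhead), GGAAGT (ETS) and CCGGAA (ETS). The CLDN1 region is intronic in CLDN1, the FN1 region is intronic in FN1, and the others are intergenic.
CDH2 gained (chr18:25864227-25864427): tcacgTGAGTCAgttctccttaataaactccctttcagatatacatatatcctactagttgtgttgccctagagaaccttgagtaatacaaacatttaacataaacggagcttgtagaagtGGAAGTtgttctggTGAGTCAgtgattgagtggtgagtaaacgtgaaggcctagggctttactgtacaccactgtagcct
CLDN1 gained (chr3:190037567-190037767): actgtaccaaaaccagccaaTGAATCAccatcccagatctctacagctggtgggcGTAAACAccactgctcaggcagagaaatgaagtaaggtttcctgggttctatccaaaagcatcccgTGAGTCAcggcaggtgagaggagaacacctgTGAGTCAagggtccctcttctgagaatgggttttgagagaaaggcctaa
KRT6B gained (chr12:52849651-52849851): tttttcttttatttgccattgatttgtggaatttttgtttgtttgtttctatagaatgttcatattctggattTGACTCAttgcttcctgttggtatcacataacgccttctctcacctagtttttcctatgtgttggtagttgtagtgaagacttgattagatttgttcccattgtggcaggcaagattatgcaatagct
FN1 gained (chr2:216298360-216298560): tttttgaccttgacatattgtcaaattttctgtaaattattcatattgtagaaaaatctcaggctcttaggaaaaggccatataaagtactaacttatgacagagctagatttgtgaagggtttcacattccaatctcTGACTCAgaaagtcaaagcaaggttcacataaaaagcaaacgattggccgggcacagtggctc

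The CDH2 region, 107 kb from the N-cadherin gene, held 2 AP-1 matches and 1 ETS match. The CLDN1 region held 3 AP-1 matches, of which 1 was TGAATCA, and 1 forkhead match, and the KRT6B and FN1 regions held 1 AP-1 match each.

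Lost regions nearest to genes that were far apart in FPKM are shown next, with the same marking. The gained and lost regions shown were picked by different rules, so their matches do not stand for the classes. Over all regions that could be read, TGANTCA was in 43.8% of gained and 23.2% of lost regions. The PLCB4 and CDH4 regions are intronic in those genes, and the CST6 and S100A8 regions are intergenic.
PLCB4 lost (chr20:9216276-9216476): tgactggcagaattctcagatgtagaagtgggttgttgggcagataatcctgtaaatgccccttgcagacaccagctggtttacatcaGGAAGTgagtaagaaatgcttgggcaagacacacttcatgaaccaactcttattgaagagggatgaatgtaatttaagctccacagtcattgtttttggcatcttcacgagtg
CDH4 lost (chr20:60057426-60057626): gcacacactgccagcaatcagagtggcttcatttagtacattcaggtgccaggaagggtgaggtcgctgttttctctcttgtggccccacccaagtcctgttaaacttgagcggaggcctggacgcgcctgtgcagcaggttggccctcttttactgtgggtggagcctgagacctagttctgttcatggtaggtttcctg
CST6 lost (chr11:65775950-65776150): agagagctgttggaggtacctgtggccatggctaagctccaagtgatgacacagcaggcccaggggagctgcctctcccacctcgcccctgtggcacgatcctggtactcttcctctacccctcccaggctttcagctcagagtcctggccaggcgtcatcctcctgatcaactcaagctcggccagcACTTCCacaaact
S100A8 lost (chr1:153367740-153367940): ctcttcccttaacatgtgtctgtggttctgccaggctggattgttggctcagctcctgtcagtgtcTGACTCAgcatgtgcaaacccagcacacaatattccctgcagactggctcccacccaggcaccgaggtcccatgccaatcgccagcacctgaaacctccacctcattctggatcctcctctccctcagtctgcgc

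Of these, the S100A8 region held 1 AP-1 match, the PLCB4 and CST6 regions held 1 ETS match each, and the CDH4 region held none of the 4 motifs.

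Few strong peaks were gained or lost. Among the first 1000 peaks of each list, 1 RWPE1-ERG+mAKT peak and 9 RWPE1-ERG peaks had no counterpart in the other full list. At ranks over 20000 up to 33000 this was 13.8% (95% interval 13.2 to 14.4) of RWPE1-ERG+mAKT peaks and 34.2% (33.4 to 35.1) of RWPE1-ERG peaks. Gained peaks were weak and short, with a median rank of 26087, a median pileup (fragments covering the peak) of 21 and a median length of 288 bp. Lost peaks had a median rank of 23967, a median pileup of 45.9 and a median length of 439 bp, against 508 bp and 650 bp for shared peaks in the RWPE1-ERG+mAKT and RWPE1-ERG lists. Intervals for shares cover counting error only.

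The RWPE1-ERG+mAKT library had less signal in its peaks at a similar background. Background coverage, taken as the first percentile of MACS2's local background over the peaks, was 2.39 in RWPE1-ERG and 2.22 in RWPE1-ERG+mAKT. At 36701 peaks that matched 1 to 1, the median pileup was 57.1 in RWPE1-ERG and 30.4 in RWPE1-ERG+mAKT, a median log2 ratio of -0.90. The ratio was -1.46 for the 1000 strongest RWPE1-ERG peaks and -0.26 for RWPE1-ERG peaks ranked past 33000. The -log10 p of the 33000th peak was 20.3 in RWPE1-ERG and 8.16 in RWPE1-ERG+mAKT. The excess of lost over gained peaks also went with the longer RWPE1-ERG list against which gained peaks were sought. Between the first 33000 peaks of each list, 8466 RWPE1-ERG+mAKT and 8550 RWPE1-ERG peaks had no counterpart, and with lists of equal length (42081 peaks) these numbers were 11381 and 11532. In lists of equal length overlapping peaks pair up, so these numbers must be nearly equal in both directions. Their near-equality therefore says nothing about why lost peaks outnumbered gained peaks. With 1 library per line, a difference of library quality and a difference of the cells cannot be told apart, and the larger number of lost than gained peaks moved with this difference in signal.

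**Figure D1:**
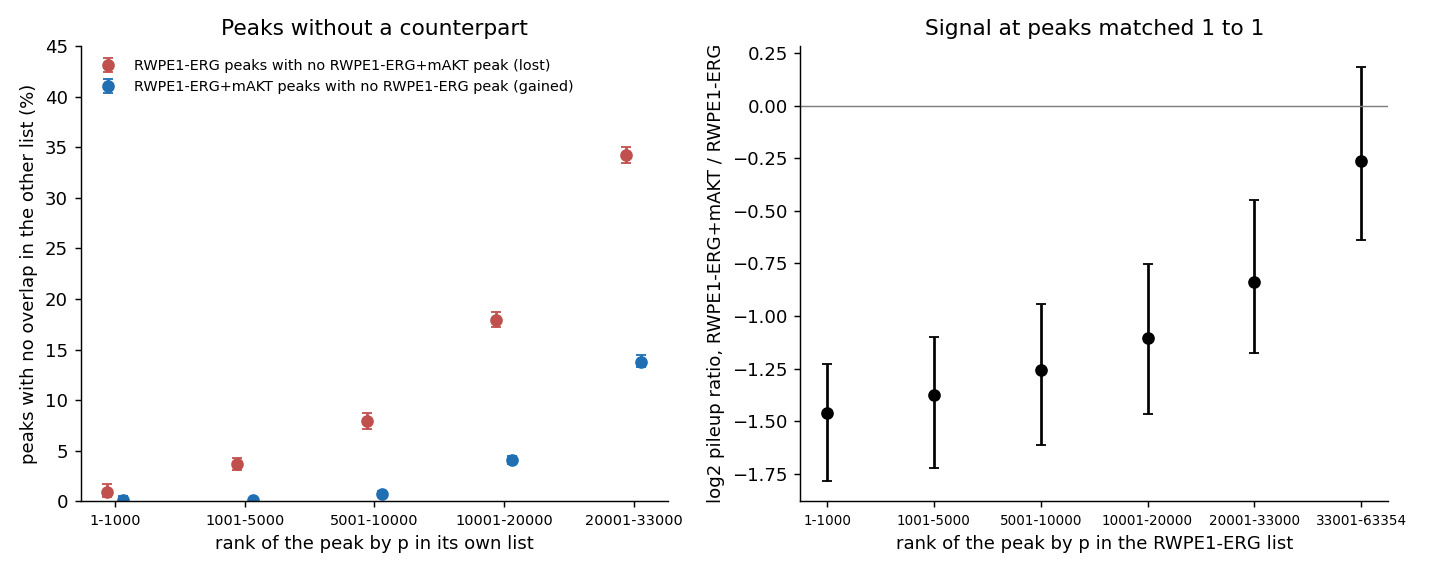
Left, the share of peaks (%) that overlapped no peak of the other full list, by rank of the peak in its own list, with 95% Wilson intervals. Right, the median log2 ratio of pileup (RWPE1-ERG+mAKT over RWPE1-ERG) at peaks matched 1 to 1, by rank in the RWPE1-ERG list, with bars from the first to the third quartile. Lost peaks outnumbered gained peaks in every rank class when sought in full lists of 42081 and 63354 peaks, and the median ratio went from -1.46 in the strongest class to -0.26 in the weakest.

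The gained peak of lowest p was chr10:103124589-103124788, ranked 84 with a pileup of 219, which lies over RNU2-59P, a small nuclear RNA pseudogene in the span of BTRC, and was in neither other ATAC-Seq list. Of the next in order of p, 3 were in introns of ARHGEF18 (chr19:7525438-7525817), FSTL5 (chr4:162857755-162858279) and COL23A1 (chr5:178012533-178012744). These 3 had pileups of 60.0 to 79.6 and were all also peaks of RWPE1+mAKT, with pileups there of 29.1 to 95.5. Of the lost peaks of lowest p, 4 are described here, and they were much stronger, with RWPE1-ERG pileups of 367 to 431. They lay in introns of an unnamed transcript 358 kb from LINC01422 (chr22:27674915-27675497), ALDH1A2 (chr15:58500950-58501663), PDE1C (chr7:32133028-32133702) and DAB2IP (chr9:124398684-124399241). The chromosome 22, PDE1C and DAB2IP regions were also peaks of RWPE1+mAKT, at lower pileups of 86.1, 32.2 and 110.

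Gained and lost regions were mostly distal. Of gained peaks 7.06% (6.08 to 8.20) and of lost peaks 8.24% (7.61 to 8.92) lay within 1 kb of a protein-coding gene start, against 38.1% and 41.2% of shared peaks in the RWPE1-ERG+mAKT and RWPE1-ERG lists. The mean GC content of these windows of 100 bp to either side was 43.5% for gained, 49.6% for lost and 55.5% and 56.6% for shared peaks. Away from gene starts the shared peaks had a GC content of 49.2% and 50.5%, near that of lost peaks at 49.2%, and gained peaks were lower at 42.9%.

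The list of RWPE1+mAKT, the line with mAKT and no ERG virus, was compared next. A peak of that list overlapped 62.1% (60.0 to 64.0) of gained and 51.4% (50.2 to 52.6) of lost peaks. For all of the first 33000 peaks at ranks over 20000 up to 33000 this share was 87.9% in the RWPE1-ERG+mAKT list and 79.6% in the RWPE1-ERG list, so both classes were less often open in RWPE1+mAKT than other peaks of similar rank. At those ranks the shares were 58.4% (56.1 to 60.6) for gained and 48.8% (47.3 to 50.3) for lost peaks, and among the first 10000 they were 88.4% (38 of 43 gained) and 60.8% (335 of 551 lost). Thus 1397 gained regions were open in both lines with mAKT and not called in RWPE1-ERG, and 3306 lost regions were called in RWPE1-ERG alone of these 3 lines.

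The AP-1 site was more frequent in gained than in lost peaks, at 43.8% against 23.2% (22.2 to 24.2), with 24.6% of all of the first 33000 RWPE1-ERG+mAKT peaks and 20.5% of RWPE1-ERG peaks. Much of the distance from shared peaks went with position and length. Among peaks over 1 kb from a gene start and 200 to 400 bp long, the share was 50.0% (47.6 to 52.4) for gained peaks, 44.5% (43.4 to 45.6) for shared RWPE1-ERG+mAKT peaks, 47.4% (45.5 to 49.3) for shared RWPE1-ERG peaks and 31.2% (29.5 to 33.1) for lost peaks. In that class, therefore, gained and shared RWPE1-ERG peaks had overlapping intervals, and lost peaks stood below the other sets. The search allowed any base at N, so these shares include TGAATCA and TGATTCA. Those forms are richer in A and T, as gained peaks were, and were not counted apart. AP-1 binding was not measured. Of 8 expressed AP-1 subunit genes, FOSL1 was at least 2-fold lower (FPKM 200 in RWPE1-ERG and 78.1 in RWPE1-ERG+mAKT) and 0 were at least 2-fold higher, and JUN (39.2 and 36.3), FOS (9.04 and 12) and FOSB (1.15 and 1.45) were each nearest to 1 lost peak.

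The forkhead site TGTTTAC was in 8.24% (7.17 to 9.45) of gained and 3.11% (2.72 to 3.55) of lost peaks, and in 3.58% and 2.80% of all of the first 33000 peaks of the RWPE1-ERG+mAKT and RWPE1-ERG lists. The order was kept in the distal class of 200 to 400 bp, with 9.25% (7.94 to 10.7) of gained, 5.30% (4.84 to 5.80) and 5.39% (4.61 to 6.30) of shared and 2.87% (2.29 to 3.60) of lost peaks. The lower GC content of gained peaks moved with this A and T rich site, and its part in the difference was not tested. GGAATG, the site of the TEAD factors, was in 23.2% of gained, 17.7% of lost and 15.2% and 14.3% of all peaks, and TGTGGTT, the site of the RUNX factors, was in 7.12%, 5.61%, 4.17% and 4.18%. In the distal class of 200 to 400 bp the TEAD site was in 24.4% (22.4 to 26.5) of gained and 19.6% (18.1 to 21.2) of lost peaks, with 21.3% (20.4 to 22.1) and 23.7% (22.1 to 25.3) of shared RWPE1-ERG+mAKT and RWPE1-ERG peaks, so the intervals of gained and shared RWPE1-ERG peaks overlapped. The intervals of gained and lost peaks overlapped for the RUNX site.

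The intervals of gained and lost peaks overlapped for both ETS sites. GGAAGT was in 15.9% (14.4 to 17.5) of gained, 14.5% (13.7 to 15.4) of lost and 15.7% and 15.3% of all peaks. CCGGAA was in 3.70% (2.99 to 4.56) of gained and 3.22% (2.83 to 3.67) of lost peaks, below the 9.54% and 8.92% of all peaks, and in the distal class of 200 to 400 bp the 4 sets lay between 2.87% and 3.92%. A CCGGAA match followed by GT is also a GGAAGT match, so the 2 counts overlap. CACGTG, the E-box, was in 3.21% of gained, 3.37% of lost and 4.18% and 4.19% of all peaks, and the NF-kappaB motif was in 1.29%, 0.972%, 1.25% and 1.21%. AACCGGTT, the grainyhead site, was in 0 of 2246 gained peaks, where up to 0.171% is allowed by the interval. It was in 0.0736% of lost peaks and in 0.1248% and 0.1002% of all peaks. The interval of gained peaks includes these shares, so 0 matches do not show that the site was less frequent in gained peaks. All motifs were searched on both strands, and a match describes letters, not binding.

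**Figure D2:**
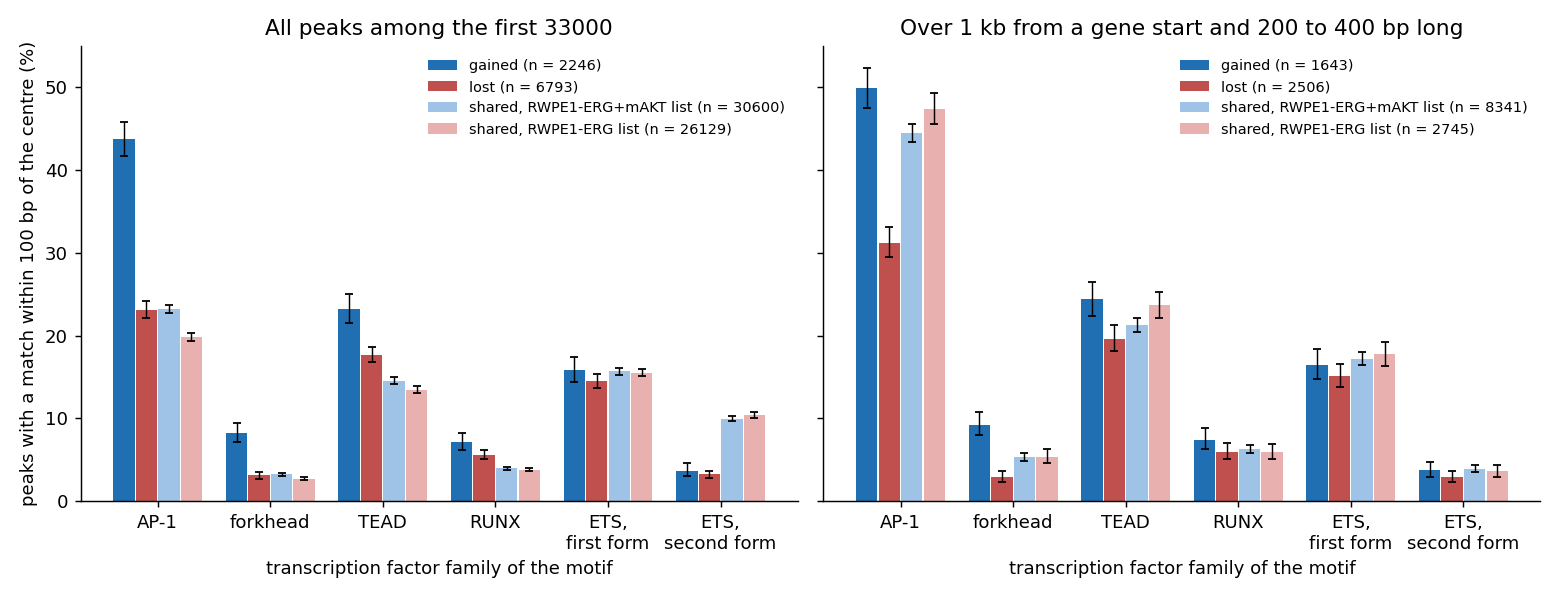
Bars give the share of peaks (%) with a match to the site of each transcription factor family within 100 bp of the peak centre, with 95% Wilson intervals, for gained, lost and shared peaks. The left panel holds all peaks among the first 33000 and the right panel only peaks over 1 kb from a gene start and 200 to 400 bp long. On the right, AP-1 and forkhead sites were least frequent in lost peaks, and forkhead sites were most frequent in gained peaks.

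ERG, ERK2 and H3K27me3 ChIP-Seq gave readouts that had no part in the choice of regions. An ERG peak of RWPE1-ERG+mAKT cells overlapped 53 gained peaks (2.35%, 1.80 to 3.07) and 72 lost peaks (1.06%, 0.842 to 1.33), against 4.61% of shared RWPE1-ERG+mAKT peaks. An ERK2 peak of RWPE1-ERG cells overlapped 53 gained peaks (2.35%, 1.80 to 3.07) and 27 lost peaks (0.397%, 0.273 to 0.577), against 5.92% of shared peaks. At ranks over 20000, ERG peaks overlapped 2.34% (1.73 to 3.15) of gained and 2.91% (2.61 to 3.24) of shared RWPE1-ERG+mAKT peaks. There ERK2 peaks overlapped 2.12% (1.55 to 2.89) and 3.13% (2.83 to 3.47), so both pairs of intervals overlapped. Lost peaks at those ranks stayed lower, at 1.15% for ERG and 0.472% for ERK2, against 3.58% and 3.93% of shared RWPE1-ERG peaks. In the distal class of 200 to 400 bp, ERG peaks overlapped 1.94% (1.38 to 2.73) of gained, 4.05% and 4.18% of shared and 0.996% (0.676 to 1.47) of lost peaks. In the same class ERK2 peaks overlapped 1.94% (1.38 to 2.73) of gained, 2.16% and 2.33% of shared and 0.319% (0.162 to 0.628) of lost peaks. H3K27me3, the mark of Polycomb repression, was called in RWPE1-ERG over 243 lost peaks (3.57%, 3.16 to 4.04) and 21 gained peaks (0.933%, 0.611 to 1.42), against 1.03% of shared RWPE1-ERG peaks. That H3K27me3 list held 228233 regions over 138 megabases. The share at random positions of the genome was not taken, so these values rank the peak classes and show no excess over the genome. At ranks above 20000 the H3K27me3 shares were 3.53% of lost and 1.61% of shared RWPE1-ERG peaks, and in the distal class of 200 to 400 bp they were 2.39% (1.86 to 3.07) and 0.545% (0.331 to 0.898). The ERG list came from the line in which lost regions were not called, and the ERK2 and H3K27me3 lists came from the line in which gained regions were not called.

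Each peak was then assigned to the gene with the nearest span in the expression table, and FPKM, pooled by the authors over 3 libraries per line, was compared between the lines. The 12441 genes that reached an FPKM of 1 in either line are called expressed, and 2-fold differences are on FPKM + 1. In such bulk samples fewer cells of a type and less RNA per cell cannot be told apart. Of expressed genes, 256 (2.06%) were at least 2-fold higher and 313 (2.52%) at least 2-fold lower in RWPE1-ERG+mAKT cells, and the median log2 ratio was -0.047. Gained peaks were nearest to 999 expressed genes (8.03% of the 12441) and lost peaks to 2140 (17.2%), and 416 genes were nearest to both.

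Genes nearest gained peaks were not more often higher in FPKM. Of the 999 genes, 19 (1.90%, 1.22 to 2.95) were at least 2-fold higher and 46 (4.6%, 3.47 to 6.09) at least 2-fold lower, with a median log2 ratio of -0.076 (order-statistic interval -0.10 to -0.054). Of the 2140 genes nearest lost peaks, 64 (2.99%, 2.35 to 3.80) were higher and 56 (2.62%, 2.02 to 3.38) lower, with a median of -0.020 (-0.036 to -0.0029). The 583 genes with gained and no lost peaks held 7 higher (1.20%) and 26 lower (4.46%, 3.06 to 6.45), and the 1724 with lost and no gained peaks held 52 higher (3.02%, 2.31 to 3.93) and 36 lower (2.09%). The share of lower genes was thus above its background at genes with gained peaks, and the share of higher genes was above its background at genes with lost peaks. The 6412 genes nearest to a top peak but to none gained or lost had 1.23% higher and 1.62% lower. Genes are not independent replicates. Genes nearest gained and lost peaks also had longer spans, with medians of 78.5 kb and 64.1 kb against 32.8 kb for all expressed genes.

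The same genes can be counted from the RNA side, which is no separate evidence. Of 270 genes at least 2-fold lower with an FPKM of 5 or more in RWPE1-ERG, 42 (15.6%, 11.7 to 20.4) were nearest to a gained peak, against 8.03% of expressed genes, and 45 (16.7%, 12.7 to 21.6) to a lost peak, against 17.2%. Of 174 genes at least 2-fold higher with an FPKM of 5 or more in RWPE1-ERG+mAKT, 11 (6.32%, 3.57 to 11) were nearest to a gained and 39 (22.4%, 16.9 to 29.2) to a lost peak, and both intervals include those background shares. Small RNA genes made up 407 of the expressed genes and 90 of the 256 higher and 92 of the 313 lower ones, often with FPKM listed at 0 in 1 line. Without them 1.38% of expressed genes were higher and 1.84% lower, against 1.72% and 4.34% of genes nearest gained and 2.64% and 2.50% of genes nearest lost peaks.

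**Figure D3:**
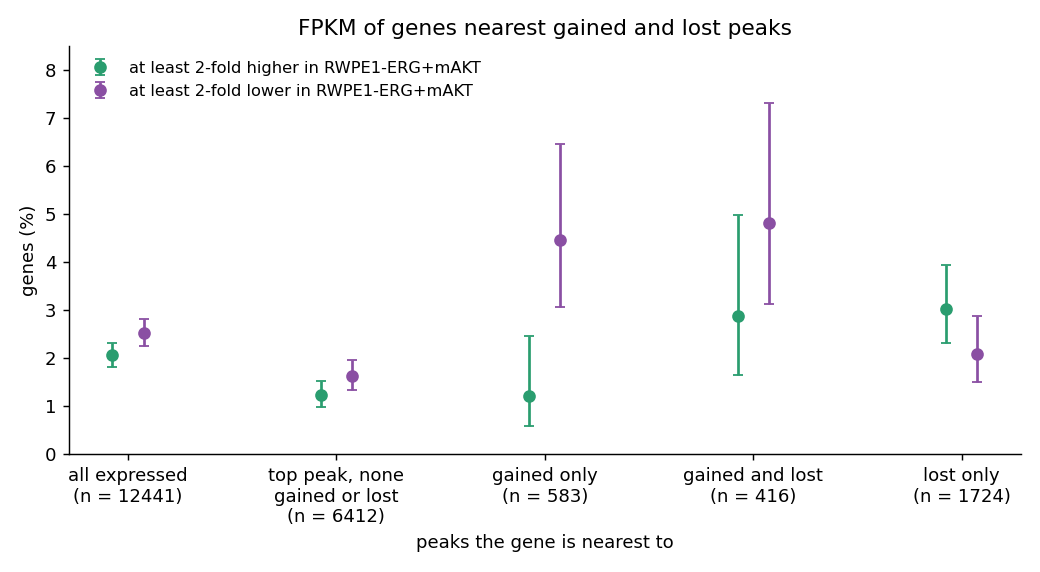
Points give the share of genes (%) at least 2-fold higher or lower in FPKM + 1 in RWPE1-ERG+mAKT than in RWPE1-ERG cells, with 95% Wilson intervals, by the class of peaks the gene was nearest to. Lower genes reached 4.46% and 4.81% in the classes with gained peaks against 2.52% of all expressed genes, and higher genes were 1.20% with gained peaks only and 3.02% with lost peaks only.

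The expressed gene with the most gained peaks was CMSS1, with 5 gained and 1 lost peak and FPKM of 45.3 in RWPE1-ERG and 41.1 in RWPE1-ERG+mAKT. The other 9 genes of the 10 had 3 gained peaks each, and none of the 10 was 2-fold apart in FPKM. CAV2, a caveolin of the plasma membrane, was at 112 and 80.6, with its gained peaks 64.3 to 104 kb from the span in the table, in introns of longer annotated CAV2 transcripts. EMP1, an epithelial membrane protein, was at 70.3 and 65.3, PTHLH, the parathyroid hormone-like hormone, at 45.5 and 31.7, and DUSP5, a nuclear phosphatase of ERK, at 33.0 and 23.7. MED27, a Mediator subunit, was at 80.0 and 67.4, TLK2, a chromatin kinase, at 7.90 and 7.95, and SAMD12 at 1.65 and 1.68. FAM49A (0.761 and 1.07) and the antisense RNA NR2F1-AS1 (1.45 and 0.368) were low in both lines. All 3 gained peaks of EMP1, PTHLH, DUSP5 and NR2F1-AS1 were also peaks of RWPE1+mAKT.

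XYLT1, which starts glycosaminoglycan chains, had 8 lost and 0 gained peaks and was lower in FPKM, at 3.45 in RWPE1-ERG and 0.595 in RWPE1-ERG+mAKT. It was the only one of the 10 genes with the most lost peaks that was 2-fold apart. B4GALT1, a galactosyltransferase, had 6 lost peaks and the opposite order, 64.7 and 86.6, and HS6ST1, a heparan sulfate sulfotransferase, also had 6 and was at 7.79 and 11.4. PLEKHA7 and MAGI1, junction proteins, had 7 lost peaks each and were at 0.863 and 2.00 and at 0.765 and 1.13. KAZN (7 lost, 1 gained) was at 4.07 and 4.96, HIVEP3 (6 lost) at 1.22 and 0.712 and the transcription factor NFIA (6 lost) at 4.23 and 4.04. FLRT3 had 10 lost and 1 gained peak (2.61 and 2.15) and ANKRD34A 7 and 2 (1.51 and 0.671), but the table gives these genes spans of 2058 kb and 2321 kb, and the lost FLRT3 peaks all lie in introns of MACROD2.

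Of genes with gained and no lost peaks and an FPKM of 5 or more in either line, KRT6B, GCLC and SECTM1 were at least 2-fold higher in RWPE1-ERG+mAKT. KRT6B, a keratin of stressed and stratified epithelium, was at 6.15 and 22.6, with its gained peak 3.73 kb from the span. GCLC, which limits glutathione synthesis, was at 11 and 24.1, with 1 gained peak, and SECTM1, a secreted transmembrane protein, was at 3.91 and 9.0 with 2 gained peaks. The next, MXD1 (3.05 and 5.55), LRIG3 (4.02 and 7.03) and FAM160B2 (7.80 and 12), were under 2-fold. KRT6B shares long stretches with KRT6A, so its FPKM is uncertain. Lowest in ratio among genes with only gained peaks were MIR597 (9.92 and listed at 0), TGM2 (53.5 and 4.18) and MIR6807 (71.7 and 6.35). The gained peak of MIR597 lies in an intron of TNKS, within a span of 226 kb, and that of MIR6807 in an intron of ZBTB45. Neither need belong to the small RNA gene. TGM2 is the tissue transglutaminase, and its gained peak lay 21.5 kb from the span at chr20:36815154-36815404.

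With lost and no gained peaks, PLCB4, a phospholipase C, was at 22.8 and 1.93 with 2 lost peaks, of which the stronger (chr20:9216103-9216650, pileup 154) ranked 3864. CDH4, R-cadherin, was at 8.79 and 1.84 with 6 lost peaks, all inside its span and with RWPE1-ERG pileups of 48.6 to 108. CST6, cystatin E/M, was at 74.3 and 18.5, and C8orf88 at 11.3 and 2.02, with 1 lost peak each. The small RNA genes MIR6784 (46.9) and MIR554 (16.6) were listed at 0 in RWPE1-ERG+mAKT, and MIR7844 (20.6) and MIRLET7D (16.8) at 0 in RWPE1-ERG. The lost peak of C8orf88 lies in an intron of NECAB1, that of MIR6784 in PLCD3 and a lost peak of MIR554 in TUFT1. These peaks need not belong to the gene they were assigned to. For S100A8, a calcium-binding protein of activated keratinocytes and neutrophils, FPKM was 1.60 in RWPE1-ERG and 137 in RWPE1-ERG+mAKT, while 2 peaks 3.19 and 3.96 kb from it, with RWPE1-ERG pileups of 52.4 and 62.8, were lost.

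The squamous and cornified envelope genes had the largest median difference in FPKM of the 10 lists, and 1 of the 12 expressed genes was nearest to a gained or lost peak. Of 12 expressed genes 10 were at least 2-fold higher and 0 lower in RWPE1-ERG+mAKT, with a median log2 ratio of 1.83. SPRR1B and SPRR1A, cornified envelope precursors, were at 1.48 and 74.8 and at 0.367 and 33.9, and the keratins KRT13 and KRT16 were at 9.76 and 148 and at 7.25 and 87.4. None of the 10 was nearest to a gained or lost peak, and the only member nearest to 1 was KRT10 (14.3 and 15.3), with 1 gained peak. Of all expressed genes only 8.03% were nearest to a gained and 17.2% to a lost peak, so few of 10 genes would be at those shares. Some of these genes also had short spans, 1.73 kb at SPRR1A and 3.05 kb at KRT16, against a median of 32.8 kb for all expressed genes.

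Basal genes differed in both directions. Of 14 expressed genes 4 were at least 2-fold higher and 3 lower. KRT5 (1170 and 3519) and DST (13.3 and 33.3), a hemidesmosome linker, were higher and nearest to 1 and 3 lost peaks, and KRT15 (80.3 and 280) and KRT17 (1768 and 4542) were higher and nearest to neither class. Of the lower genes, the laminin chains LAMA3 (75.9 and 35.2) and LAMB3 (222 and 99.1) were nearest to 1 gained peak and to 1 gained and 1 lost peak. KRT14 and ITGA6 (70.9 and 67.2) were nearest to 1 lost peak each and under 2-fold.

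Mesenchymal genes were lower, with 6 of 12 expressed genes at least 2-fold lower, 0 higher and a median log2 ratio of -0.83. FN1, fibronectin, was at 228 and 23.8 and was nearest to 1 gained peak, in its own intron at chr2:216298347-216298573 with a pileup of 18.5. CDH2, N-cadherin, was at 7.38 and 0.666 and was nearest to 2 gained peaks, 107 and 617 kb away, and 1 lost peak, 906 kb away. VIM (1056 and 288) and SPARC (67.5 and 15.4) were lower with no gained or lost peak nearest, and TGFBI (234 and 116) with 1 lost peak. TNC (15.3 and 10.5), under 2-fold, was nearest to 2 lost peaks.

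The ERK list holds feedback inhibitors of the pathway, such as the DUSP, SPRY and SPRED genes, and transcriptional targets, such as EGR1, ETV4 and ETV5. Of 13 expressed genes 1, the target ETV5 (12.5 and 4.42), was at least 2-fold lower and 0 were higher, with a median log2 ratio of -0.41. These genes were nearest to 4 gained peaks, at DUSP5 and PHLDA1 (23.9 and 21.2), and to 11 lost peaks at DUSP4, DUSP5, SPRY4, SPRED2, PHLDA1 and ETV4. SPRY4 (8.66 and 5.18), an inhibitor of receptor signaling, was nearest to the strongest of them, chr5:141655078-141655545 with a pileup of 192. DUSP4 was at 11.8 and 9.4, SPRED2, with 3 lost peaks, at 10.7 and 8.75, and the ETS factor ETV4 at 24.3 and 12.

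FOXO targets and PI3K feedback genes were all under 2-fold, with 13 expressed genes, a median log2 ratio of 0.17, 3 gained and 8 lost peaks. FOXO1 (2.70 and 4.29) was nearest to 3 lost peaks, FOXO3 (6.90 and 8.74), PIK3IP1 (1.16 and 1.17) and CITED2 (9.58 and 10.4) to 1 each, and IRS2 (7.40 and 6.15), the insulin receptor substrate, to 2 gained peaks 71.8 and 83.1 kb away. BCL6 (1.68 and 4.21), a transcriptional repressor, was nearest to 1 gained and 2 lost peaks.

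Of 12 epithelial junction genes 1, OVOL1 (0.411 and 1.92), was at least 2-fold higher, with no gained or lost peak nearest. CLDN1 (13.3 and 26.3) was nearest to 1 gained and 1 lost peak, CLDN4 (14.9 and 17.6) to 2 gained peaks, and DSP (45.7 and 78.2) and GRHL2 (6.69 and 11.8) to 1 lost peak each. Of 6 expressed genes for invasion proteases and migration, CTGF (24.1 and 5.54) and CYR61 (255 and 51.5) were at least 2-fold lower with neither class nearest, ETS1 (25.0 and 13.5) was nearest to 2 gained and 2 lost peaks and ENC1 (12.2 and 6.53) to 1 gained peak. Of 6 expressed cytokine genes IL1B (168 and 44.6) was at least 2-fold lower with neither class nearest, and CXCL2 (3.06 and 2.52), CCL20 (2.84 and 3.18) and CSF2 (1.21 and 0.304) were each nearest to 1 lost peak. The 7 expressed luminal genes had a median log2 ratio of -0.43, and 0 were at least 2-fold lower. ELF3 (5.81 and 23.4) was at least 2-fold higher with neither class nearest, and KRT18 was nearest to 1 lost peak.

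**Figure D4:**
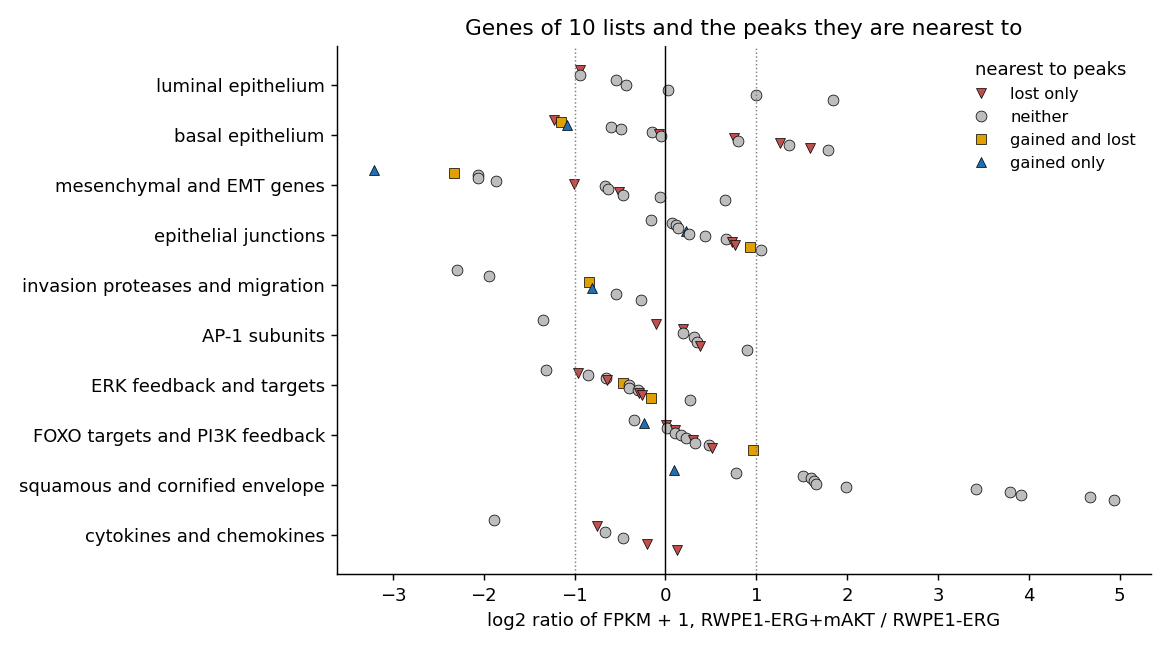
Each point is an expressed gene of 1 of 10 lists, placed by its log2 ratio of FPKM + 1 (RWPE1-ERG+mAKT over RWPE1-ERG), with symbols for the peaks it was nearest to and dotted lines at 2-fold. The 10 squamous genes past 2-fold had no gained or lost peak nearest, and FN1, the lowest point at a log2 ratio of -3.20, was nearest to a gained peak only. Of all expressed genes, 8.03% were nearest to a gained and 17.2% to a lost peak.

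Peaks present in both lists were also compared by strength, after centring the log2 pileup ratio on its running median over mean pileup to take out the weaker signal of the RWPE1-ERG+mAKT library. Of the 36701 matched peaks 2822 were at least 2-fold above and 2225 at least 2-fold below that median. The relatively raised peaks held the AP-1 site in 33.8% (32.1 to 35.6) and the forkhead site in 6.11% (5.27 to 7.07), against 18.1% (16.6 to 19.8) and 2.93% (2.30 to 3.71) of relatively lowered and 20.6% and 3.17% of all matched peaks. Only 10.1% of raised and 14.5% of lowered peaks lay within 1 kb of a protein-coding start, against 36.3% of all matched peaks. Shared peaks over 1 kb from a start held the AP-1 site in 33.9% (RWPE1-ERG+mAKT list) and 30.2% (RWPE1-ERG list). They held the forkhead site in 4.36% and 3.66%. The AP-1 share of raised peaks was thus near that of distal shared peaks, and raised and lowered peaks were not compared at matched position.

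The median centred ratio of a gene's matched peaks ran slightly against its FPKM. It was 0.10 (0.030 to 0.18) over 182 genes at least 2-fold lower in FPKM, -0.023 (-0.033 to -0.012) over 7969 genes within 0.5 on the log2 scale and -0.014 (-0.065 to 0.081) over 145 genes at least 2-fold higher. Across 9202 genes, which share both libraries and are not independent, Spearman's rho was -0.10 and Pearson's r was -0.084. Of 16 listed genes at least 2-fold higher in FPKM, 12 had matched peaks, with a centred log2 ratio below 0 at 8 and above 0 at 4 and a median of -0.24. Of 14 listed genes at least 2-fold lower, 13 had matched peaks, with a ratio above 0 at 11 and below 0 at 2 and a median of 0.38. Over all genes of these FPKM classes the medians were only -0.014 for higher and 0.10 for lower genes. The lists were chosen with earlier results of these data known, and the share of all genes above 0 was not taken. Among the higher genes the ratio ran from -1.16 at KRT15 to 0.93 at KRT13, with -0.065 at KRT17, 0.28 at DST and 0.84 at IVL. Among the lower genes it ran from -0.35 at CTGF to 0.90 at TGFBI, with -0.058 at FN1, 0.10 at VIM and 0.88 at CDH2.

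Gained and lost peaks were uneven over the chromosomes. Of the first 33000 RWPE1-ERG+mAKT peaks 6.82% were gained, with 9.73% (8.33 to 11.3) on chromosome 4, 9.60% (7.38 to 12.4) on chromosome 18, 9.56% (8.28 to 11) on chromosome 7 and 3.32% (2.50 to 4.4) on chromosome 19. Of RWPE1-ERG peaks 20.6% were lost, with 28.0% (25.7 to 30.4) on chromosome 15 and 11% (9.48 to 12.8) on chromosome 19. The median centred pileup ratio was 0.25 on chromosome 7, 0.18 on chromosome 10 and -0.22 on chromosome 15. The median log2 FPKM ratio was -0.013, -0.071 and 0.11 on these chromosomes, and the RNA median was lowest on chromosome 18, at -0.34, where the centred pileup ratio was -0.017. A difference in chromosome copies between the populations was not tested. Without chromosome 7, which had the highest centred pileup ratio, there were 2080 gained peaks, and 44% (41.8 to 46.1) of those read held the AP-1 site.

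**Figure D5:**
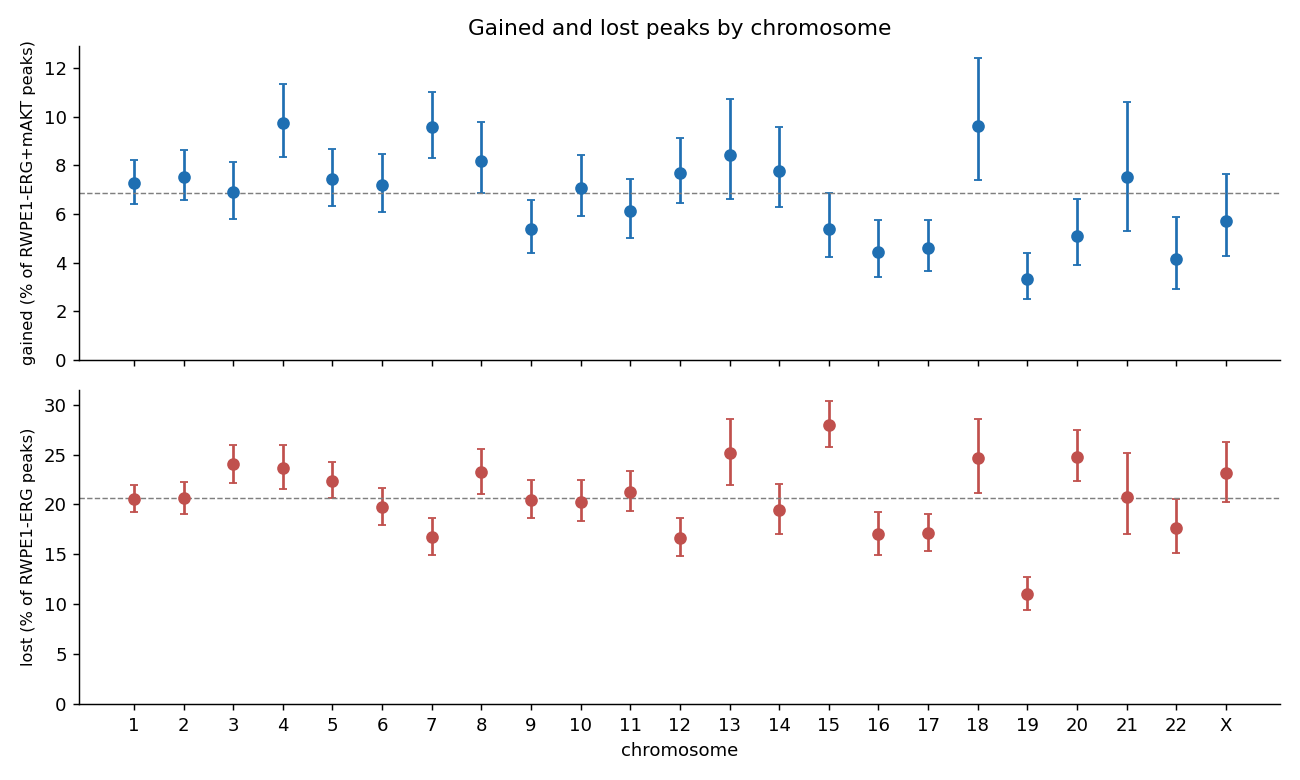
Points give gained peaks as a share (%) of the first 33000 RWPE1-ERG+mAKT peaks (top) and lost peaks as a share (%) of the first 33000 RWPE1-ERG peaks (bottom) on each chromosome, with 95% Wilson intervals and a dashed line at the share over these chromosomes. Chromosome 15 had the highest lost share, 28.0%, and chromosome 19 the lowest of both shares, 3.32% and 11%.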

How the data were processed

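ATAC-Seq libraries, 1 per line, were aligned to hg19 by the authors with Bowtie2, stripped of duplicates with Picard and called with the broad setting of MACS2. Per the deposited lists, each peak carries its pileup (a coverage signal), the ratio to local background (fold enrichment) and −log10 values of p and q. The column names of p and q are damaged in both compared lists and were taken from their place. The authors' deposited expression table gives FPKM from Cuffdiff, pooled over 3 libraries per line, with 0 columns of single samples. Its fold changes, test scores, p-values and q-values are the authors' own comparisons and were not used. The deposited ERG, ERK2 and H3K27me3 ChIP-Seq lists, with fold enrichments from DNA pooled over experiments, were used for position only. Total read depth was not given in the sources used here for the compared lists, and only the coverage behind each peak is known.

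Peaks were ranked by p and overlapped by 1 bp or more. For the nearest gene, ties went to the shorter gene and then the first name. Log2 ratios used a pseudocount of 1. Motifs and sequences were read from GRCh37, the same build, with GENCODE release 44 mapped to it for gene starts and introns, with starts for 22043 of the 26251 genes of the table. RefSeq tables were not used. Intervals are 95% Wilson intervals, or order-statistic intervals for medians. Pileup ratios were centred in 50 bins of mean pileup.

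Genes named are the 10 with the most gained and the 10 with the most lost peaks, the 6 largest rises and 3 largest falls in FPKM among genes with gained peaks only (6 falls and 3 rises with lost peaks only) at an FPKM of 5 or more, and list members, except for a few items that are not reported here. FPKM of genes without peaks of either class is given for list members only as background. The members and the 13 lists were chosen with earlier results of these data known. The code (Python with pandas 2.3.3, scipy 1.17.1 and pysam 0.24.0) was tested on simulated intervals, genes and motifs. No test between groups was run, since each group has 1 library or 1 pooled value.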

Additional observations from a re-analysis of the deposited data

How the results depend on the processing

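Of 70 alternative values, 32 stayed within the interval of the value reported (within 1.5 times for counts of peaks) and 38 moved beyond it. Only the medians of log2 ratios could change sign, since counts and shares cannot, and no median took the opposite sign. The share of RWPE1-ERG+mAKT peaks in the RWPE1-ERG list was 88.4% with all deposited peaks, 72.8% with the top 20000, 73.0% with equal numbers, 67.8% at 50% overlap, 68.6% by fold enrichment and 90.3% at a q-value of 0.0001. The reverse share was 58.5%, 72.7%, 72.6%, 67.8%, 68.6% and 56.9%. Gained peaks numbered 4902 with all deposited peaks, 455 in the top 20000, 11381 with equal numbers and 8466 when absent from the top 33000 only. Lost peaks numbered 26318, 2348 and 11532 in the first 3 of these. With no filter on FPKM both medians were 0, the gained share higher was 0.999% and the lost share lower 1.25%. Of all genes without that filter, 0.975% were higher and 1.19% lower. With a pseudocount of 0.1 these shares were 3.20% and 3.97%, with 2.96% of all expressed genes higher and 3.62% lower. At 1.5-fold they were 4.4% and 7.43%, with 4.26% of all expressed genes higher and 6.94% lower. TGANTCA was in 24.5% of gained and 12.5% of lost peaks within 50 bp, in 58.4% and 38.9% of whole peaks, in 31.4% and 19.6% with all deposited peaks, in 47.1% and 16.4% of the 500 of lowest p, and in 50.0% and 31.2% of distal peaks of 200 to 400 bp, and in 24.6% of lost peaks at ranks over 20000. The last 2 settings and those without chromosomes 7 and 15 or small RNA genes were chosen after seeing the data. No paired analysis was possible because each line has 1 ATAC-Seq library and the pooled FPKM columns carry no replicate number, and for the same reason no replicate could be left out.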

Other observations

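ERG is also a factor of endothelial cells, so the peaks nearest to endothelial genes were looked at although none of the 5 was expressed. CDH5, VE-cadherin, was nearest to 4 lost and 0 gained peaks, with RWPE1-ERG pileups of 55.1 to 89.2 and distances of 6.49 to 176 kb, and its FPKM was 0.0103 in RWPE1-ERG and 0.210 in RWPE1-ERG+mAKT. KDR, a receptor of VEGF, was nearest to 2 lost peaks, and TEK, the angiopoietin receptor, to 3 lost peaks and 1 gained peak, all inside its span. All 4 lost CDH5 peaks were also peaks of RWPE1+mAKT, at pileups of 11.8 to 25.7. Of the leukocyte genes, PTPRC (CD45) was nearest to 3 gained peaks at an FPKM of 0.00391 and 0.00382, and ITGAM to 1 lost peak. TMPRSS2, the usual fusion partner of ERG in prostate tumors, was nearest to 2 gained peaks 56.8 and 75.1 kb from its span, at an FPKM of 0.0115 and 0.0536. MMP10, a stromelysin, was nearest to 1 gained peak, at 0.0385 and 0.817.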
